A study of Mus musculus with 12 samples.

Results

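The comparison set amygdala mRNA of 4 mice labelled more anxious against that of 3 mice labelled less anxious, 7 of the 12 libraries of the series, each from 1 mouse. All were age-matched females of the inbred strain C57/BL6, and the labels name no transgene and no drug. Each mouse had been through the elevated plus maze, the light/dark box and the three-chamber social test before the amygdala of both sides was dissected. The 7 were chosen by the label of predicted anxiety state alone. Of the other 5 libraries, the 4 labelled anxious entered only a covariate, an alternative fit and some values given at the end. The 1 with no group in the labels, which the study left out as an outlier, entered only those values. The study made the labels from the tertiles of a principal component (PC2) of these same expression profiles, which it had related to behavior. The p-values are therefore not independent evidence that the groups differ, and the values describe what the transcriptomes on either end of that axis contain, as labelled. The questions were which functional classes and which cell-type genes differ between these ends, and which genes outside those named by the study do.

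The amygdala joins parts of different origin. Its basolateral nuclei resemble cortex and are built mostly of glutamatergic projection neurons marked by Slc17a7, Tbr1 and Neurod2, with scattered interneurons. The central nucleus and the intercalated cells resemble striatum and hold GABAergic projection neurons, many of them with peptides such as corticotropin-releasing hormone, tachykinins, dynorphin and enkephalin. Fear and anxiety behavior depends on the flow from the first to the second. A bulk library mixes these neurons with glia, vessels and traces of tissue beside the dissected block, and in such a mixture fewer cells of a type and less RNA per cell cannot be told apart.

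Library totals were 36169009, 40120236 and 37055198 estimated counts for less anxious replicates 1 to 3 and 45142355, 33278984, 44710867 and 36578626 for more anxious replicates 1 to 4. All were sequenced in 1 run. Values below are CPM, counts scaled to library totals adjusted by TMM factors, in this order of replicates, and the replicate numbers follow accession order and pair no mice. At this depth a count of 3, taken as the floor that a count of 0 allows, is below 0.1 CPM, so low genes are limited by counting, and such floors cover counting error only. The 10 most abundant genes held 10.7 to 14.7% of a library. Over the 21 pairs of libraries the smallest mean chi-square per gene was 21.4, so none agreed within sampling noise. PC2 scores computed here were 29.1, 11.1 and 8.57 in the less anxious mice and -15.2, 0.28, -25.2 and -12.8 in the more anxious mice, so more anxious replicate 2 lay nearest to the other group. Anxious replicates 1 and 4, at -4.4 and -2.88, lay below that mouse, so these scores do not return the labelled tertiles. Time in the open arms of the maze was 17.5, 24.5 and 24.6% in the less anxious mice and 2.33, 29.2, 4.3 and 3.25% in the more anxious mice. More anxious replicate 2 thus had the longest open-arm time of the 7, against its label, and medians without this mouse are given for several lists.

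Of 25657 genes tested, 1 (0.0039%) passed an adjusted p of 0.05 in edgeR (quasi-likelihood F-test, PC1 score of each mouse as covariate, Benjamini-Hochberg over the whole table), and 253 did in DESeq2's likelihood ratio test. It was Pgam1-ps2, a processed pseudogene of a glycolytic mutase (chr7:27469771-27470535, GRCm38), with 1707 counts (38.6 CPM) in more anxious replicate 3 and 0 in the other 6 libraries. A call that rests on 1 mouse says nothing of the group, reads of near-identical copies are hard to place, and no fold is given. The edgeR count was 0 without that mouse or less anxious replicate 1, 2 without less anxious replicate 3 or more anxious replicate 2, 4 without less anxious replicate 2 or more anxious replicate 1, and 12 without more anxious replicate 4. The smallest adjusted p of the other genes (edgeR quasi-likelihood, Benjamini-Hochberg) was 0.0929. The differences described from here on are therefore given as values, and none as an established change. A gene is called nominally higher or lower, in the more anxious mice, where its unadjusted p was under 0.05. This held for 1289 genes upward (5.02%) and 888 downward (3.46%), the shares against which the counts within each list are to be read. Upward calls made up 59.2% of these, and 48.6% where library totals alone set the scale. The upward count was 818 without more anxious replicate 3. All 4 more anxious values lay above all 3 less anxious values for 1200 genes (4.68%) and below them for 1023 (3.99%). Fold changes are log2 values of more over less anxious from that fit, with standard errors, the most abundant member of a list is the one with the highest mean CPM, and the median fold change over all genes tested was 0.0076.

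Fold changes followed the base composition and the length of transcripts. Among 15907 genes with a mean of at least 1 CPM the median GC content was 49.3%. It was 55.7% in the 1024 nominally higher genes among them and 46.8% in the 708 nominally lower ones. Median transcript length was 2314 bases in the higher genes and 4774 in the lower ones. By decile of GC content the median fold change ran from -0.071 in the lowest decile to 0.16 in the highest, and by decile of length from 0.11 in the shortest to -0.089 in the longest. The difference between the top and the bottom GC decile was -0.42, 0.12 and -0.22 in the less anxious mice and 0.065, 0.21, 0.27 and -0.046 in the more anxious mice. Less anxious replicates 1 and 3 were low and more anxious replicates 2 and 3 high, while less anxious replicate 2 and more anxious replicates 1 and 4 lay between, so the groups overlapped. For length the same difference was -0.0024, 0.11 and 0.22 against -0.10, -0.042, -0.17 and -0.037, with each more anxious mouse below each less anxious one. An offset that follows GC content in each library brought the decile medians to between -0.010 and 0.0083. Of the genes described below, Dbp, Gad2, Nr2f6, Olig1, Ppp1r14a, Ptprc, Rgs5, Siglech, Slc9b2 and Snrnp70 were no longer nominal (unadjusted p under 0.05) with it. In a fit of all 11 labelled libraries Adgra3, Ak7, C1s1, Calcrl, Gabrg3, Gad2, Gbx2, Gh, Meis2, Nr2f6, Pdyn, Prl and mt-Atp8 were not. List medians with that offset are given for several lists, and the cause of the gradient was not tested.

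**Figure D1:**
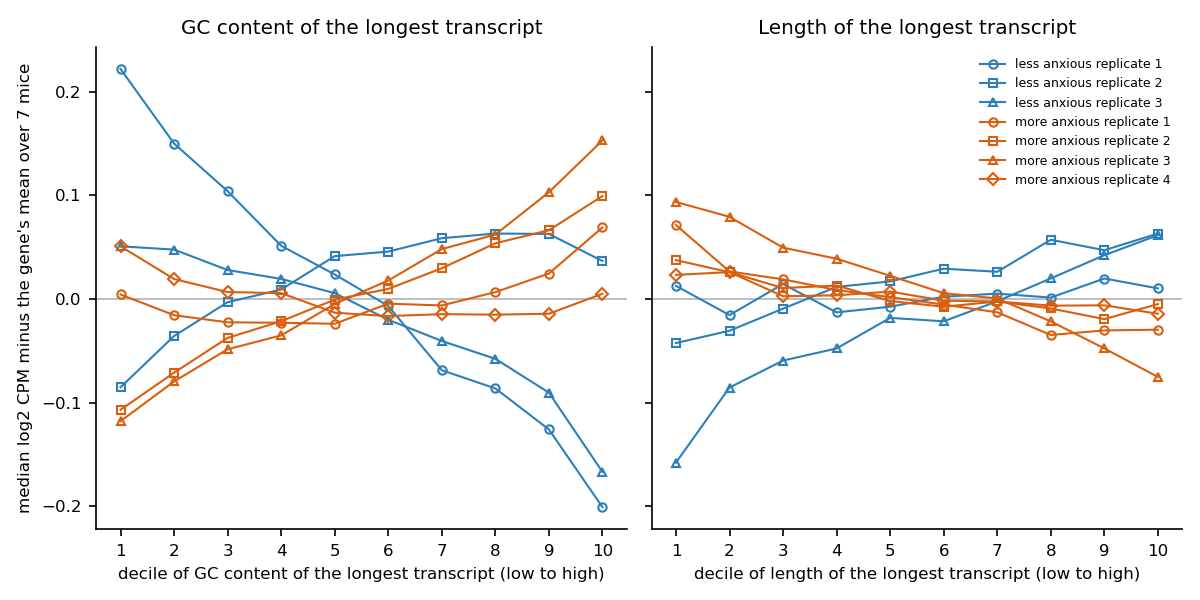
Median log2 CPM, centred on the mean of each gene over 7 mice, by decile of GC content (left) and of length (right) of the longest transcript; 1 line per mouse, blue for less and orange for more anxious. GC-rich genes were lowest in less anxious replicate 1 (a difference of -0.42 between the end deciles) and highest in more anxious replicate 3 (0.27).

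Genes of cortical-type glutamatergic neurons were mostly higher in the more anxious mice. Of 17 members 15 had a positive fold change, with a median of 0.42 (0.32 with the GC offset, 0.48 without more anxious replicate 2), and 6 were nominally higher and 0 lower. List scores (the median over members of log2 CPM centred on each gene's mean) were -0.25, 0.084 and -0.38 in the less anxious mice and 0.021, 0.067, 0.31 and 0.30 in the more anxious mice, so less anxious replicate 2 overlapped. Emx1, a homeobox gene of the pallium, was at 4.77, 7.6 and 5.3 CPM in the less anxious mice and 9.08, 10.03, 13 and 10.5 CPM in the more anxious mice. All 4 more anxious values lay above the less anxious ones, and the fold change was 0.84 ± 0.20 (0.39 with the GC offset). Neurod2, a transcription factor of maturing projection neurons, was at 26.1, 45.3 and 24.3 CPM against 52.6, 48.7, 50.8 and 53.3 CPM (fold change 0.66 ± 0.17). Here less anxious replicate 2, at 45.3 CPM, stood near the more anxious mice and the other less anxious mice well below. Tbr1, a T-box factor of early-born cortical neurons, was at 47.9, 50.1 and 46.6 CPM against 47.6, 76.8, 84.9 and 94.7 CPM. More anxious replicate 1 fell among the less anxious mice for this gene and the other 3 lay above (fold change 0.67 ± 0.21). The vesicular glutamate transporter Slc17a7 was at 698, 1104 and 676 CPM against 913, 1081, 1392 and 1117 CPM, and its fold change of 0.44 ± 0.20 did not reach the nominal threshold. Camk2a, a kinase and the most abundant member, overlapped, at 2152, 2919 and 1940.0 CPM against 2219, 2480.5, 2409 and 2580.3 CPM. Rspo2, a secreted Wnt modulator of basolateral neurons, overlapped as well (12.2, 16.8 and 8.63 CPM against 13.3, 9.55, 17.3 and 5.7 CPM). Adjusted p-values of Emx1, Neurod2 and Tbr1 (edgeR quasi-likelihood, Benjamini-Hochberg) ranged from 0.269 to 0.459. The count of 6 was 3 without less anxious replicate 1, and the median was 0.75 without less anxious replicate 2 and 0.25 without more anxious replicate 3.

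Interneuron and general GABAergic genes showed no common direction. The 22 members had a median of 0.011, 12 positive and 10 negative, with 1 nominally higher and 2 lower. Gad2, a glutamate decarboxylase, was lower, at 229, 195 and 267 CPM in the less anxious mice and 191, 226, 152 and 158 CPM in the more anxious mice. More anxious replicates 3 and 4 gave the low values, and replicate 2 lay inside the less anxious range (fold change -0.39 ± 0.17). Gad1, the other decarboxylase, was at 326, 330.4 and 371 CPM against 307, 420.1, 298 and 282 CPM. Dlx2, a homeobox gene of GABAergic lineages, was higher, at 3.13, 6.03 and 4.91 CPM against 9.37, 8.95, 6.55 and 5.5 CPM, with a fold change of 0.58 ± 0.19. Dlx6os1, a long noncoding RNA transcribed opposite Dlx6, lay below all less anxious values in all 4 more anxious mice (18.6, 16.1 and 20.2 CPM against 13.1, 14.3, 13 and 13.8 CPM, fold change -0.42 ± 0.13), and since the sources do not say whether the counting used the strand that the kit keeps, reads of its partner may be among them. Somatostatin, a peptide of interneurons and of central amygdala cells, was spread within the more anxious group, at 227, 274 and 223 CPM against 465, 359, 351 and 182 CPM. The list median was -0.15 without less anxious replicate 2, -0.035 without less anxious replicate 3, -0.029 without more anxious replicate 1, -0.036 without more anxious replicate 2, -0.029 without more anxious replicate 3 and -0.014 without more anxious replicate 4. The downward count of 2 was 1 without less anxious replicate 3 or more anxious replicate 1, 3 or 4 and 5 without less anxious replicate 2, and the upward count of 1 was 0 without less anxious replicate 2 and 2 without less anxious replicate 1 or more anxious replicate 2, 3 or 4.

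Genes of the central amygdala were mostly lower in the more anxious mice. The 16 members had a median of -0.40 (-0.37 with the GC offset, -0.44 without more anxious replicate 2), 13 were negative, and 6 were nominally lower. Scores overlapped through less anxious replicate 1, at -0.12, 0.28 and 0.27 in the less anxious mice and -0.24, 0.11, -0.12 and -0.31 in the more anxious mice. Pdyn, which encodes the dynorphin precursor, was at 29.1, 65 and 67.6 CPM in the less anxious mice and 8.5, 35.9, 23.7 and 19.3 CPM in the more anxious mice. Its fold change was -1.41 ± 0.51, and less anxious replicate 1 fell inside the more anxious range. Meis2, a homeobox factor of striatal and central amygdala lineages, was at 94.3, 167 and 153 CPM against 89.7, 159, 90.7 and 88.5 CPM (fold change -0.51 ± 0.15), with less anxious replicate 1 low and more anxious replicate 2 high within their groups. Tac2, the neurokinin B precursor, was at 22.9, 18.5 and 9.93 CPM against 10.2, 10.6, 12 and 10.8 CPM, with less anxious replicate 3 below all other mice (fold change -0.62 ± 0.25). Calcrl, a receptor for calcitonin gene-related peptide, had no overlap, at 9.42, 7.85 and 11.8 CPM against 6.98, 6.23, 5.94 and 7.48 CPM, and a fold change of -0.50 ± 0.18. Other defining markers were not nominally lower. Prkcd, of the lateral division, was at 16.2, 13.4 and 9.77 CPM against 7.94, 12.5, 11.9 and 11.2 CPM. Crh, corticotropin-releasing hormone, was at 4.27, 5.9 and 5.64 CPM against 5.5, 5.81, 5.4 and 7.06 CPM, and Nts, neurotensin, at 28, 18.7 and 16.8 CPM against 22.1, 19.7, 14.2 and 12 CPM. Fitted with edgeR's quasi-likelihood test, the Benjamini-Hochberg adjusted p-values of Pdyn, Meis2, Tac2 and Calcrl lay at 0.364 to 0.566. The count of 6 was 2 without less anxious replicate 3 or more anxious replicate 4 and 3 without less anxious replicate 2 or more anxious replicate 2 or 3, and 1 in a fit of all 11 labelled libraries.

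Genes of striatal-type projection neurons had the lowest median of the cell-type lists, -0.51, with 17 of 18 negative, but differed widely within the less anxious group. Scores were -0.40, 0.31 and 0.84 in the less anxious mice and -0.47, -0.10, -0.051 and -0.17 in the more anxious mice. Less anxious replicate 3 stood highest and less anxious replicate 1 was among the lowest. Adora2a, the adenosine receptor of the indirect pathway, was at 8.12, 24.3 and 47.5 CPM in the less anxious mice and 4.54, 14.2, 19.4 and 11.3 CPM in the more anxious mice. Drd1, the dopamine receptor of the direct pathway, was at 18, 29.4 and 37.6 CPM against 12.6, 24.1, 18.7 and 24.8 CPM, and Rgs9, a regulator of G-protein signalling, at 17.6, 35.1 and 62.6 CPM against 18.9, 22, 24.5 and 21 CPM. For each of the 3 the highest value was less anxious replicate 3 and the groups overlapped. Gng7, a G-protein gamma subunit, and Adcy5, an adenylyl cyclase of the same pathway, were the nominally lower members, with fold changes of -0.44 ± 0.14 and -0.41 ± 0.14. Penk, the enkephalin precursor and most abundant member, was at 194, 464 and 552 CPM against 221, 434, 276 and 203 CPM. The count of 2 was 1 without less anxious replicate 3 and 13 without less anxious replicate 1, and the median was -0.20 without less anxious replicate 3 and -0.52 without more anxious replicate 2. The list shares Drd2 and Penk with the central amygdala list, and the part of neighbouring striatum in these values was not tested.

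Astrocyte genes were lower by a small amount and in nearly all members. Of 24 genes 22 were negative, the median was -0.22 (-0.20 with the GC offset, -0.21 without more anxious replicate 2), 8 were nominally lower and 0 higher. List scores did not overlap, at 0.11, 0.23 and 0.016 in the less anxious mice and -0.049, -0.15, -0.17 and -0.015 in the more anxious mice. Slc1a3, the glutamate-aspartate transporter, was at 649, 760.1 and 589.8 CPM in the less anxious mice and 503, 484, 438 and 466 CPM in the more anxious mice. Each more anxious mouse lay below each less anxious mouse (fold change -0.53 ± 0.11). Slc4a4, a sodium bicarbonate cotransporter, behaved likewise, at 119, 136 and 129 CPM against 91.2, 97.8, 91.3 and 102 CPM (fold change -0.44 ± 0.10). Slc1a2, the main glutamate transporter and the most abundant member, was at 2161, 1976 and 1697 CPM against 1624, 1569, 1476 and 1594 CPM, again without overlap and with a fold change of -0.31 ± 0.12. Ppp1r3c, which targets a phosphatase to glycogen, was lower, with a fold change of -0.45 ± 0.14. Markers of reactive or perivascular astrocytes overlapped. Gfap, an intermediate filament, was at 165, 135 and 119 CPM against 139, 94.1, 86.8 and 179 CPM, and Aqp4, the water channel of endfeet, at 137, 120.1 and 109 CPM against 101, 75.9, 79 and 132 CPM. The count of 8 was 2 without less anxious replicate 2, 4 without more anxious replicate 2 and 5 without less anxious replicate 1 or more anxious replicate 3 or 4. Without less anxious replicate 2 the median was -0.14.

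Genes of oligodendrocyte precursors and of microglia had negative medians, with smaller counts. Nominally lower were 25% and 13.6% of their members, against 3.46% of all genes. The median precursor transcript has 6014 bases, a length at which genes of at least 1 CPM had a median of -0.066. The part of length in the precursor values was not tested. The 12 precursor genes had a median of -0.14 and scores without overlap, 0.16, 0.20 and 0.035 in the less anxious mice and -0.043, -0.058, -0.094 and -0.028 in the more anxious mice. Pdgfra, the growth factor receptor that defines these cells, was at 57.8, 72.1 and 67.1 CPM in the less anxious mice and 55.7, 58.6, 50.6 and 49.5 CPM in the more anxious mice (fold change -0.34 ± 0.093). Gpr17, a receptor of cells about to differentiate, and Tnr, the matrix protein tenascin-R, were also nominally lower, at -0.43 ± 0.12 and -0.29 ± 0.10. Cspg5, the most abundant member, overlapped (338, 347 and 267 CPM against 319.9, 343, 316 and 306 CPM). The precursor count of 3 was 1 without less anxious replicate 2, and the median was -0.036 without less anxious replicate 2, -0.22 without less anxious replicate 3 and -0.21 without more anxious replicate 4. Mature oligodendrocyte genes were mixed, with a median of -0.11 over 21 members. Mbp, myelin basic protein, was at 1242, 1549 and 1616 CPM against 1152, 1348, 1375 and 1463 CPM. Olig1, a lineage factor, was nominally higher at 57.3, 68.2 and 62.1 CPM against 78.2, 77.3, 92.1 and 71.4 CPM (fold change 0.34 ± 0.12, 0.13 with the GC offset). The phosphatase inhibitor Ppp1r14a was nominally higher too (fold change 0.64 ± 0.23, 0.41 with the GC offset). The median of this list was -0.20 without less anxious replicate 1, -0.036 without less anxious replicate 3, 0.021 without more anxious replicate 1 and -0.19 without more anxious replicate 3. Its 3 lower calls became 0 without less anxious replicate 2 or 3 and 1 without more anxious replicate 1 or 3, and its 2 higher calls 0 without less anxious replicate 1 or more anxious replicate 3 and 4 without more anxious replicate 4. With the GC offset this list had 0 higher and 0 lower calls. Microglial genes had a median of -0.15, 20 of 22 negative and 3 nominally lower, and scores that overlapped, 0.14, 0.19 and -0.012 in the less anxious mice and -0.26, -0.072, 0.095 and -0.013 in the more anxious mice. Ptprc, the leukocyte phosphatase CD45, was at 12.3, 8.88 and 9.02 CPM against 4.67, 5.81, 9.15 and 5.0 CPM, and more anxious replicate 3 overlapped the less anxious mice (fold change -0.63 ± 0.22). Cx3cr1, the fractalkine receptor, and Siglech, a sialic acid lectin, had fold changes of -0.26 ± 0.11 and -0.35 ± 0.15. P2ry12, a homeostatic receptor, was at 39.99, 34.1 and 30.1 CPM against 27.8, 32.3, 30.2 and 32.3 CPM. The microglial count of 3 was 0 without less anxious replicate 1 or 2, 1 without more anxious replicate 1 or 4 and 7 without more anxious replicate 3, and the median was -0.0023 without less anxious replicate 2, -0.23 without less anxious replicate 3 and -0.24 without more anxious replicate 3.

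Endothelial genes were lower in 24 of 25 members, with a median of -0.32 (-0.38 with the GC offset, -0.28 without more anxious replicate 2) and 9 nominally lower. Flt1, a receptor for vascular endothelial growth factor, was at 28.7, 51.1 and 40.7 CPM in the less anxious mice and 26.6, 27.2, 21.9 and 29.96 CPM in the more anxious mice. Slco1a4, an organic anion transporter of the blood-brain barrier, was at 44.3, 46.5 and 43.8 CPM against 26.3, 28.2, 30.3 and 36 CPM. The groups overlapped for Flt1, through less anxious replicate 1, and not for Slco1a4, and the fold changes were -0.65 ± 0.14 and -0.56 ± 0.12. Itm2a, a membrane protein of vessel cells, had no overlap either, at 46.3, 39.3 and 44.1 CPM against 26.5, 27.9, 32 and 36.2 CPM (fold change -0.45 ± 0.11). Pecam1, an adhesion molecule between endothelial cells, was spread in both groups, at 31.2, 44.6 and 17.6 CPM against 11.8, 26.9, 9.76 and 13.6 CPM, with a fold change of -1.23 ± 0.33. Cldn5, the tight junction protein used most often to mark these cells, overlapped (22.4, 25.7 and 21.8 CPM against 18.8, 21, 22.6 and 24.7 CPM), as did Bsg, the most abundant member (362, 397 and 348 CPM against 434, 377, 418 and 388 CPM). List scores were 0.0089, 0.26 and 0.21 in the less anxious mice and -0.23, -0.23, -0.23 and 0.058 in the more anxious mice, so more anxious replicate 4 lay among the less anxious mice. The count of 9 was 5 without less anxious replicate 2. Pericyte and smooth muscle genes had a median of -0.19 over 13 members with 1 nominally lower, Rgs5, a pericyte marker at 87.2, 84.2 and 79.9 CPM against 75.7, 56.3, 63.1 and 75.7 CPM (fold change -0.29 ± 0.12). That median ran from -0.31 to 0.069 with single mice left out, positive without less anxious replicate 3, and the call was 0 without less anxious replicate 2 or more anxious replicate 2 or 3 and 2 without less anxious replicate 1. Acta2, the actin of vessel walls, was high in less anxious replicate 3 and more anxious replicates 2 and 4, at 8.84, 12.3 and 47.8 CPM against 7.56, 25.1, 14.4 and 32.7 CPM. Genes of meningeal fibroblasts had a median of -0.26, 0 of 15 called (lower calls were 1 without less anxious replicate 1 and 4 without more anxious replicate 4), and scores of 0.087, -0.30 and 0.94 in the less anxious mice and -0.93, -0.49, -0.39 and 0.89 in the more anxious mice. Less anxious replicate 3 and more anxious replicate 4 held the high values, and with single mice left out the median ran from -0.86 to 0.16, positive without less anxious replicate 3. Dcn, the proteoglycan decorin, reached 132 CPM in more anxious replicate 1 and lay at 13.1 to 49.9 CPM in the others.

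Tissues that border the dissected block were checked through their own genes. Kcnj13, a potassium channel of choroid plexus epithelium, was lower in each more anxious mouse, at 3.24, 4.18 and 5.15 CPM in the less anxious mice and 0.134, 0.299, 0.203 and 1.19 CPM in the more anxious mice, or 117, 167 and 198 counts in the less anxious mice and 6, 10, 9 and 43 in the more anxious mice. Its fold change was -3.20 ± 0.69. Clic6, an intracellular channel protein, was also nominally lower (5.63, 5.95 and 8.73 CPM against 5.23, 6.11, 3.48 and 2.14 CPM, fold change -0.85 ± 0.32), but Ttr, the transthyretin gene that dominates choroid plexus RNA, was at 1.39, 5.55 and 1.01 CPM against 1.3, 4.43, 1.49 and 1.28 CPM. Folr1, the folate receptor of that epithelium, had 20, 4 and 3 counts in the less anxious mice and 29, 4, 17 and 3 in the more anxious mice. The 22 choroid plexus genes summed to 211, 222 and 251 CPM in the less anxious mice and 186, 207, 190.5 and 197 CPM in the more anxious mice, with a median fold change of -0.29, 3 nominally lower and Enpp2, also a gene of oligodendrocytes, as the most abundant. The count was 1 without less anxious replicate 1 or more anxious replicate 3 or 4, and the median -0.17 without more anxious replicate 3. Among 9 tested pituitary genes, Prl, prolactin, had 23, 37 and 62 counts in the less anxious mice and 6, 3, 0 and 2 in the more anxious mice, and Gh, growth hormone, 20, 57 and 45 counts in the less anxious mice and 6, 0, 1 and 6 in the more anxious mice. Both were nominally lower, though not in the fit of 11 libraries, at levels of at most 1.61 CPM, and no fold is given because the more anxious counts reach the floor. The pituitary sum of 28.8, 26.6 and 28.3 CPM in the less anxious mice and 20.9, 22.1, 24.3 and 23.3 CPM in the more anxious mice came mainly from Pcsk1, a prohormone convertase that neurons also express, and the list median was -0.21, or 0.079 without less anxious replicate 1, -0.058 without more anxious replicate 3 and -0.36 without more anxious replicate 4. The hormone subunit Cga was among the members with too few counts to test. Ependymal genes summed to 37.2, 23.1 and 22.3 CPM in the less anxious mice and 22.9, 22.7, 20.5 and 23.4 CPM in the more anxious mice, highest in less anxious replicate 1, with a median of -0.25 (-0.078 without less anxious replicate 1, -0.52 without less anxious replicate 2 and -0.14 without more anxious replicate 3) and 1 of 12 nominally lower, the cilium kinase Ak7. That call was 0 without less anxious replicate 1 or 2 or more anxious replicate 1, 3 or 4. Red blood cell genes had a median of 0.043 and no nominal call among 5, led by the globin Hbb-bs. Their median ran from -0.27 to 0.21 with single mice left out.

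Lists of neighbouring brain regions hold 11 or 12 tested genes, so a single call is a large share of a list. Nominally lower were 9.09% of the thalamic and 8.33% of the hippocampal genes, against 3.46% of all genes. Nominally higher were 8.33% of the hippocampal genes, against 5.02% of all genes. Hypothalamic genes had a median of 0.082 over 12 members and no nominal call, with a range of -0.052 to 0.30 when single mice were left out. Thalamic genes had a median of -0.19, -0.11 without less anxious replicate 3 and -0.38 without more anxious replicate 1, with 1 of 11 nominally lower, Gbx2, a homeobox gene with 6, 5 and 25 counts in the less anxious mice and 5, 2, 4 and 4 in the more anxious mice, too few for a fold. That single call was 0 without less anxious replicate 3 or more anxious replicate 2 or 4 and 2 without less anxious replicate 1 or more anxious replicate 1 or 3. Slc17a6, the glutamate transporter of thalamus, which the excitatory list also holds, was at 127, 45 and 84 CPM against 62.8, 71.9, 63.9 and 91.8 CPM. Hippocampal genes had a median of -0.026 over 12 members, from -0.086 to 0.049 with single mice left out. Spink8, a protease inhibitor gene, was nominally lower at 6.76, 12.3 and 2.62 CPM against 2.88, 3.65, 2.49 and 1.42 CPM (fold change -1.60 ± 0.43). That call was 0 without less anxious replicate 2 and 2 without more anxious replicate 1. The part of neighbouring tissue in the neuronal and glial differences was not tested.

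**Figure D2:**
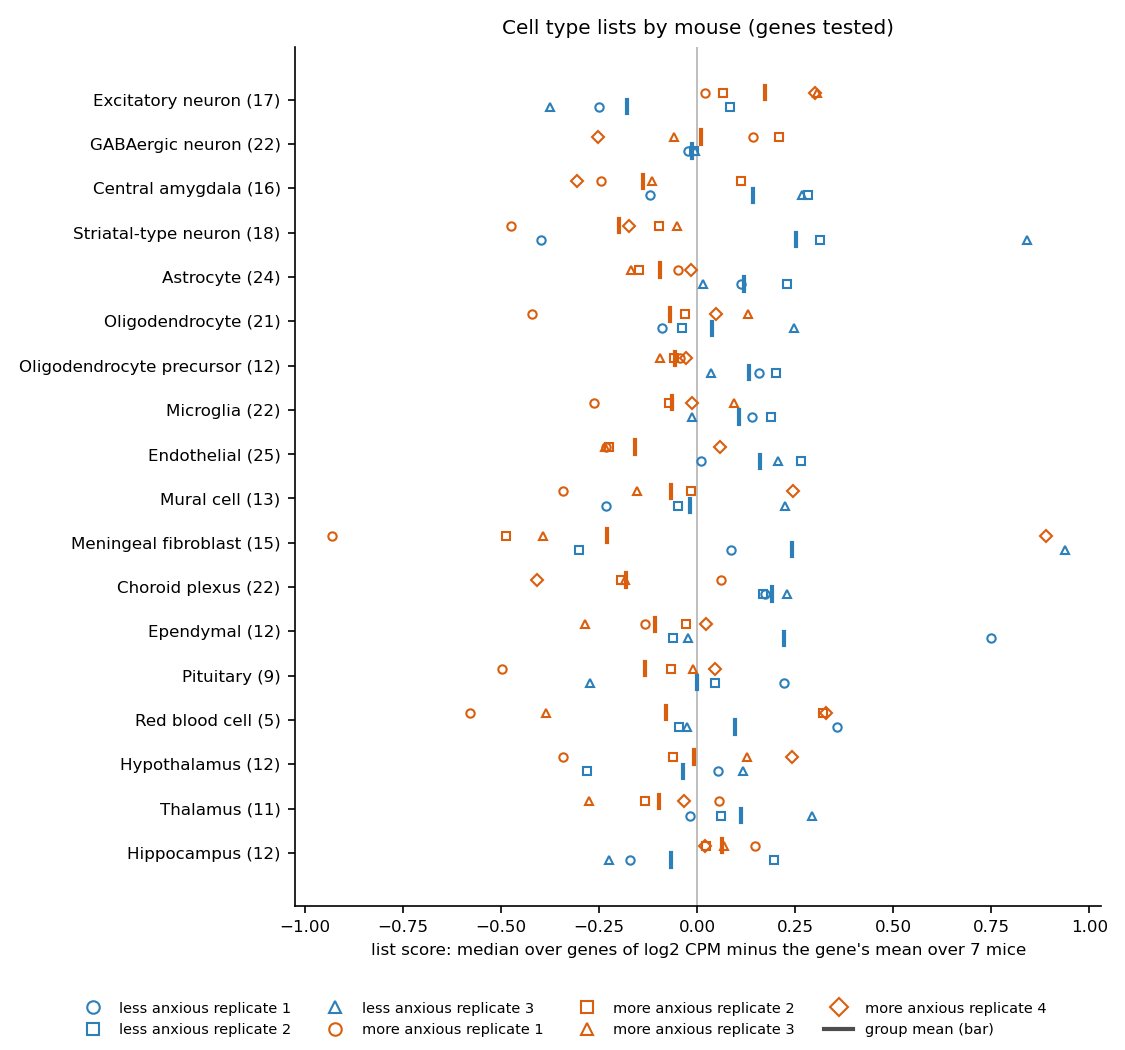
Cell-type scores by mouse, the median over tested members of log2 CPM minus the mean of each gene over 7 mice; blue symbols are less anxious and orange symbols more anxious mice, and vertical bars are group means. Astrocyte, oligodendrocyte precursor and choroid plexus scores lay lower in all 4 more anxious mice. The astrocyte groups came close, at -0.015 in more anxious replicate 4 and 0.016 in less anxious replicate 3. Striatal-type scores ran from -0.40 to 0.84 within the less anxious group.

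Genes of the immediate early list, many but not all of which neurons switch on within minutes of activity, were higher on the median by 0.43 (0.36 with the GC offset). Of 27 members 23 were positive and 7 nominally higher. Jund, a subunit of the AP-1 transcription factor, was at 40.5, 57.4 and 52.2 CPM in the less anxious mice and 116, 107, 146 and 93.3 CPM in the more anxious mice. All more anxious values lay far above the less anxious ones, and the fold change was 1.20 ± 0.18 (0.72 with the GC offset). Egr4, a zinc finger factor induced by activity, was at 5.04, 13.3 and 8.99 CPM against 21.8, 19.5, 21.9 and 20.2 CPM (fold change 1.18 ± 0.22, 0.68 with the GC offset), and Ier5l, an immediate early response gene of little known role, at 3.33, 9.1 and 5.59 CPM against 11.2, 13.4, 13.5 and 12 CPM (fold change 1.04 ± 0.22). None of the 3 overlapped. In the edgeR quasi-likelihood test (Benjamini-Hochberg) their adjusted p-values were 0.126 to 0.225. Egr1, the most abundant member, overlapped (94, 143 and 117 CPM against 151, 148, 102 and 222 CPM). Scores for the whole list were -0.95, 0.37 and -0.30 in the less anxious mice and 0.54, 0.13, -0.20 and 0.46 in the more anxious mice. Less anxious replicate 1 was lowest by far and less anxious replicate 2 stood among the more anxious mice. The median was 0.25 without less anxious replicate 1, 0.74 without less anxious replicate 2 and 0.19 without more anxious replicate 4, against 0.60 without more anxious replicate 2, and the count of 7 was 14 without more anxious replicate 2.

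Egr4 and Ier5l are shown with the 250 bases before their start sites in RefSeq, because members of this class respond together and their promoters are known for binding sites of CREB, the factor that answers cAMP and calcium. Of 27 members 22 matched the RefSeq promoter table (GRCm38.p6), with 28 windows. Read on both strands, the full cAMP response element TGACGTCA was in 2 of these windows (7.14%), those of Btg2 and Dusp1, and in 1.55% of all 32851 windows of that length. The shorter core TGACG, which the full element contains, was in 19 windows (67.9%) of 16 genes, against 17.8% of all windows. The GC box GGGCGG was in 20 (71.4%) against 32.7%. Capitals mark cores and GC boxes on either strand. The Egr4 window (chr6:85513590-85513839, minus strand) holds 2 cores, both as CGTCA, and the Ier5l window (chr2:30474200-30474449, minus strand) holds 1 GC box. The Ier5l window reaches into the gene as placed here, which starts at chr2:30474219. The RefSeq window of Jund does not adjoin the gene start used here and is not shown. A match describes letters and is not evidence of binding.
Egr4: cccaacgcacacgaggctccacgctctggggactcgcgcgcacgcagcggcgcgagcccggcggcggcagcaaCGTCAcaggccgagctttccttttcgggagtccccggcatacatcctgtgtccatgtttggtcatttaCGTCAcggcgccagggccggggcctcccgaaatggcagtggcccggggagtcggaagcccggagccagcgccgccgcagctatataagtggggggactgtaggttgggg
Ier5l: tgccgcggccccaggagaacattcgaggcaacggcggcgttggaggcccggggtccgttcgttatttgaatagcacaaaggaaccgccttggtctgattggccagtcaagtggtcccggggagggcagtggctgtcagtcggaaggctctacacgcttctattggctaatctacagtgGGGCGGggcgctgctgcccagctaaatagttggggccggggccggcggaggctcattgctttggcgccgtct

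Presynaptic and postsynaptic genes differed member by member. Of 28 genes of vesicle release 6 were nominally higher and 0 lower, with a median of 0.083. Syn1, the vesicle phosphoprotein synapsin I, was at 409, 429 and 426 CPM in the less anxious mice and 547, 504, 629 and 569 CPM in the more anxious mice, with no overlap (fold change 0.43 ± 0.11). Dnm1, the dynamin that pinches off vesicles, was at 766, 892 and 762 CPM against 1099, 1070.0, 1105 and 982 CPM (fold change 0.38 ± 0.11), again without overlap. Snap25, a SNARE protein and the most abundant member, was at 1921, 1575 and 1657 CPM against 1757, 2007, 2159 and 2451 CPM, with a fold change of 0.33 ± 0.13 and more anxious replicate 1 inside the less anxious range. The list median was 0.18 without less anxious replicate 2, 0.14 without more anxious replicate 1 and 0.021 without more anxious replicate 3. Among 25 postsynaptic scaffold genes 7 were nominally higher and 1 lower, with a median of 0.10 (0.043 with the GC offset). Prr7, a membrane protein of the postsynaptic density, was at 10.2, 10.3 and 9.2 CPM against 22.2, 23.3, 38.3 and 18.3 CPM. The more anxious values were all well above the less anxious ones, with a fold change of 1.40 ± 0.24 (0.82 with the GC offset). Nrgn, neurogranin, which binds calmodulin in spines of excitatory neurons, was at 379, 784 and 578 CPM against 1117, 1044, 1257 and 890.1 CPM (fold change 0.87 ± 0.20). Dlgap3, which links receptors to Shank proteins, was at 149, 189 and 164 CPM against 238, 238, 278 and 216 CPM (fold change 0.52 ± 0.12, 0.19 with the GC offset). Each of these 3 was without overlap. This list shares Camk2a with the excitatory list and Homer1 with the immediate early list, and its median was 0.26 without less anxious replicate 2 and 0.040 without less anxious replicate 3.

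More receptor genes were nominally lower than higher, and long transcripts were lower in general. The median transcript of the glutamate receptor list has 5441 bases and that of the GABA receptor list 4730. At these lengths, genes of at least 1 CPM had median fold changes of -0.066 and -0.047, and the part of length was not tested. The 25 glutamate receptor genes had a median of -0.11 (-0.073 with the GC offset), 5 nominally lower and 1 higher. Grin3a, an NMDA receptor subunit that lowers calcium entry, was at 89.4, 83.5 and 74 CPM in the less anxious mice and 62.1, 66.6, 62.5 and 62.1 CPM in the more anxious mice. The 4 more anxious values were close together and below all others (fold change -0.38 ± 0.10). Grm3, a metabotropic receptor found on neurons and astrocytes, had a fold change of -0.34 ± 0.12. Gria2, the most abundant member, was at 663, 668 and 693 CPM against 613, 642, 603 and 621 CPM. The lower count of 5 was 1 without less anxious replicate 3, 2 without more anxious replicate 4 and 3 without less anxious replicate 2 or more anxious replicate 2, the higher one 0 without less anxious replicate 1 or 3 or more anxious replicate 1 or 3 and 2 without more anxious replicate 2, and the median was -0.050 without less anxious replicate 1, -0.17 without less anxious replicate 2 and -0.060 without more anxious replicate 4. For 16 GABA receptor genes the median was -0.12, or -0.080 with the GC offset, -0.17 without more anxious replicate 2, and list scores did not overlap, at 0.12, 0.076 and 0.039 in the less anxious mice and -0.079, -0.005, -0.10 and -0.037 in the more anxious mice. Gabrg1, a gamma subunit, was at 74.8, 42.5 and 57.6 CPM against 42.2, 41.2, 34.8 and 36.5 CPM (fold change -0.51 ± 0.17). Gabrg3, another gamma subunit, was at 29.3, 28.9 and 36.4 CPM against 25.7, 27, 21.7 and 24.4 CPM (fold change -0.37 ± 0.13). Gabbr1, a subunit of the metabotropic GABA receptor and the most abundant member, overlapped, at 516, 614 and 685 CPM against 688, 900.1, 763 and 585 CPM, as did the summed levels of the list, 2664, 2582 and 2576 CPM in the less anxious mice and 2565, 2842, 2638 and 2536 CPM in the more anxious mice. The count of 3 lower genes was 0 without more anxious replicate 3. Pore-forming subunits of voltage-gated channels were split, with 3 of 33 nominally higher, 3 lower and a median of -0.031, from -0.11 to 0.045 with single mice left out. Cacna1a, the P/Q-type calcium channel of nerve terminals, was at 52.8, 90.5 and 79.3 CPM against 173, 164, 254 and 142 CPM. Its fold change of 1.29 ± 0.26 was the largest among them, and more anxious replicate 3 gave the highest value. Kcna2, a delayed-rectifier potassium channel of axons, was lower, at 127, 123 and 125 CPM against 94.4, 113, 99.5 and 102 CPM (fold change -0.30 ± 0.10). The channel counts were 1 without less anxious replicate 2 (higher) and 1 without less anxious replicate 2 or 3 or more anxious replicate 1 (lower).

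Peptide genes differed in both directions. Over 22 precursors and processing genes the median was 0.15, with 4 nominally higher and 2 lower. Pcsk1n, which encodes the inhibitor of a prohormone convertase, was at 124, 170.2 and 172 CPM in the less anxious mice and 389.9, 390.0, 508 and 311 CPM in the more anxious mice. Its fold change of 1.35 ± 0.19 had the smallest unadjusted p of the list, and every more anxious value was well above every less anxious one. Cck, cholecystokinin, a peptide of basolateral projection neurons and interneurons, was at 118, 153 and 98.6 CPM against 231, 177, 313 and 197 CPM (fold change 0.90 ± 0.23). Nppc, the C-type natriuretic peptide, was at 4.02, 3.43 and 3.56 CPM against 6.4, 5.78, 7.01 and 4.31 CPM (fold change 0.70 ± 0.21). Adjusted p-values of Pcsk1n, Cck and Nppc were 0.126 to 0.401 by edgeR quasi-likelihood with Benjamini-Hochberg adjustment. The lower ones were Pdyn and Tac2, given above with the central amygdala, with which this list shares 6 genes. The count of 2 lower genes was 0 without more anxious replicate 4 and 1 without less anxious replicate 2 or 3 or more anxious replicate 2 or 3, and without more anxious replicate 1 the median was 0.067.

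Nuclear genes of mitochondria were higher on the median, as short transcripts were in general. Of 75 nuclear genes of oxidative phosphorylation 64 were positive, the median was 0.15, 13 were nominally higher and 0 lower. Uqcrq, a subunit of complex III, was at 53.9, 62.3 and 53.7 CPM in the less anxious mice and 87.1, 85, 104 and 78.7 CPM in the more anxious mice, without overlap (fold change 0.64 ± 0.12). Cox5b, of cytochrome c oxidase, was at 142, 184 and 144 CPM against 232, 237, 219.7 and 202 CPM (fold change 0.46 ± 0.10), and Cox8a, of the same enzyme, at 136, 221 and 173 CPM against 270.3, 282, 361 and 267 CPM (fold change 0.73 ± 0.17). All 3 kept the groups apart, while Atp5b, of ATP synthase and the most abundant member, was at 818, 661 and 672 CPM against 722, 738, 897 and 720.0 CPM. The median transcript of this list has 1141 bases, and that of the mitochondrial ribosomal list 1866, lengths at which genes of at least 1 CPM had medians of 0.11 and 0.078 (the shortest and the next decile). The part of length in these values was not tested. The count of 13 was 6 without less anxious replicate 3, 8 without more anxious replicate 3 and 25 without less anxious replicate 1, and the median was 0.25 without less anxious replicate 1 and 0.059 without less anxious replicate 3. Mitochondrial ribosomal proteins had 17 of 78 nominally higher, 0 lower and a median of 0.12. Mrpl34, of the large subunit, was at 7.12, 8.08 and 6.57 CPM against 11.8, 11.3, 14.2 and 10.6 CPM (fold change 0.72 ± 0.16). Their count of 17 was 7 without less anxious replicate 3, 9 without less anxious replicate 2 or more anxious replicate 3 and 11 without more anxious replicate 2, and the median 0.20 without less anxious replicate 1 and 0.082 without less anxious replicate 3. Protein import into mitochondria had 5 of 23 nominally higher, 2 lower and a median of 0.15, led by Timm10b, an inner membrane chaperone at 16.6, 22.5 and 17.6 CPM against 26.7, 30.8, 29.5 and 26 CPM (fold change 0.54 ± 0.12), while Tomm20, an import receptor and the most abundant, was at 329.7, 296 and 283 CPM against 263, 278, 269 and 253 CPM. The 2 lower calls were 0 without less anxious replicate 2 or more anxious replicate 1 and 1 without less anxious replicate 1 or 3 or more anxious replicate 3 or 4, and the median was 0.075 without less anxious replicate 3 and 0.092 without more anxious replicate 3.

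The 13 mRNAs that the mitochondrial genome itself encodes followed single mice. They summed to 128383, 102168 and 125493 CPM in the less anxious mice and 145930.3, 102238, 100703 and 146649.8 CPM in the more anxious mice, highest in more anxious replicates 1 and 4, with a median of 0.19, 0.079 without more anxious replicate 1, 0.33 without more anxious replicate 3 and 0.11 without more anxious replicate 4. The nominal call was mt-Atp8, an ATP synthase subunit, with a fold change of 0.57 ± 0.19, and it was 0 without less anxious replicate 2 and 4 without more anxious replicate 3. Nuclear copies of mitochondrial sequence make these counts uncertain. Cytosolic ribosomal proteins had a median of 0.063 over 79 genes, 0.19 without less anxious replicate 1, 0.17 without less anxious replicate 2 and -0.046 without less anxious replicate 3, with 9 nominally higher and 1 lower. Rpl36, of the large subunit, was at 43.5, 73.7 and 46.3 CPM against 98.3, 108, 103 and 74.2 CPM (fold change 0.76 ± 0.15), but Rpl3, of the same subunit and the most abundant, was at 469, 523 and 455 CPM against 410.3, 455, 468 and 415 CPM. The 9 higher calls became 4 without less anxious replicate 3 and 17 without less anxious replicate 1, and the lower one 0 without less anxious replicate 1 or 2 or more anxious replicate 1, 3 or 4, 4 without more anxious replicate 2 and 5 without less anxious replicate 3. Many of these genes are short and have processed pseudogenes that could take part of their reads, and short transcripts were higher in general, as the medians by length show.

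Scores of core spliceosome and histone genes lay higher in all 4 more anxious mice. For the spliceosome they were -0.062, -0.083 and -0.17 in the less anxious mice and 0.059, 0.033, 0.056 and -0.016 in the more anxious mice, with 7 of 27 genes nominally higher, 0 lower and a median of 0.11. Sf3b5, a small protein of the U2 particle, was at 17.8, 22.6 and 18 CPM in the less anxious mice and 26.2, 31.1, 33.9 and 23.2 CPM in the more anxious mice (fold change 0.53 ± 0.15), and Snrnp70, of the U1 particle, at 174, 162 and 167 CPM against 236, 175, 223 and 196 CPM (fold change 0.33 ± 0.12). Sf3b1, the largest subunit of the same U2 complex and the most abundant member, overlapped (424, 305 and 401 CPM against 367, 294, 369.6 and 403 CPM). The count of 7 was 2 without less anxious replicate 3 and 4 without more anxious replicate 3, and the median was 0.21 without less anxious replicate 1, 0.072 without less anxious replicate 3 and 0.069 without more anxious replicate 1. Histone scores were -0.13, -0.12 and -0.20 in the less anxious mice and 0.21, 0.042, 0.12 and 0.066 in the more anxious mice, with 6 of 38 tested genes nominally higher, 0 lower, and a median of 0.15 or 0.10 with the GC offset. H2afj, a histone H2A variant, was at 15, 14.5 and 12 CPM against 35.9, 25.3, 58.4 and 28.8 CPM. More anxious replicate 3 gave the highest value and no more anxious mouse overlapped (fold change 1.46 ± 0.27). H1fx, a linker histone, was at 9.14, 14.3 and 11.2 CPM against 26.9, 24.9, 34.8 and 21 CPM (fold change 1.20 ± 0.20, 0.53 with the GC offset). Without less anxious replicate 1 the histone median was 0.25.

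Among 27 genes of the actin cytoskeleton 7 were nominally higher and 0 lower, with a median of 0.12. Tmsb10, a thymosin that binds actin monomers, was at 50.1, 59 and 43.1 CPM in the less anxious mice and 132, 92.4, 119 and 80.03 CPM in the more anxious mice (fold change 1.05 ± 0.20). Pfn1, the monomer-binding protein profilin, was at 57.3, 72.1 and 66.8 CPM against 96.5, 89.5, 97.5 and 90.6 CPM (fold change 0.50 ± 0.10). Both were without overlap, while Actg1, the most abundant actin of the list, was at 1045, 1117 and 947 CPM against 988, 1087, 1115 and 1025 CPM. The actin count was 4 without less anxious replicate 3 or more anxious replicate 3, and the median 0.071 without less anxious replicate 3 and 0.032 without more anxious replicate 3. Tubulins and their binding proteins had 7 of 22 nominally higher, 2 lower and a median of 0.14. Stmn2, a stathmin of growing axons, was at 261, 323 and 307 CPM against 378, 408, 361 and 406 CPM (fold change 0.36 ± 0.10). Map2, the long dendritic protein that is the most abundant member, went the other way, at 1549, 1449 and 1396 CPM against 1224, 1144, 1074 and 1292 CPM (fold change -0.30 ± 0.12). Tubulin genes are close copies of each other, so their separate counts are uncertain. The higher count of 7 was 2 without more anxious replicate 3, 3 without less anxious replicate 3 and 4 without less anxious replicate 1 or more anxious replicate 4 and 4 with the GC offset, the lower count 1 without less anxious replicate 1 or 2 or more anxious replicate 2 or 3, and the median 0.23 without more anxious replicate 1 and 0.092 without more anxious replicate 3. Heat shock chaperones had a median of 0.033, with 5 of 24 nominally higher and 0 lower. Dnajb6, a co-chaperone that holds back aggregation, was at 135, 139 and 126 CPM against 173, 187, 212 and 199 CPM (fold change 0.54 ± 0.11). The inducible Hspa1a was at 10.9, 10.3 and 9.41 CPM against 19.7, 16, 19.7 and 15.5 CPM (fold change 0.82 ± 0.14), though reads could have been split with its near-identical copy Hspa1b. Hspa8, the constitutive and most abundant one, was at 1374, 2015 and 1702 CPM against 1748, 2098, 1390.1 and 1637 CPM. The chaperone count was 3 without less anxious replicate 3 or more anxious replicate 1, and without less anxious replicate 3 the median was 0.0092.

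The remaining classes had medians closer to 0 or few calls, and are given with the nominal calls and the range of the median with single mice left out. Lysosomal genes had a median of -0.10 (0 higher and 3 lower of 26, -0.15 to -0.071) and scores without overlap, 0.028, 0.13 and 0.031 in the less anxious mice and -0.091, -0.046, 0.025 and -0.072 in the more anxious mice. Asah1, acid ceramidase, was at 57.2, 63.1 and 63.3 CPM in the less anxious mice and 49.6, 51.7, 41.9 and 48.2 CPM in the more anxious mice (fold change -0.39 ± 0.10), and Scarb2, a membrane receptor of lysosomes, at 126, 114 and 111 CPM against 98.7, 98.1, 92.1 and 94.8 CPM (fold change -0.28 ± 0.10). In both, every more anxious mouse lay below. The lysosomal count was 5 without less anxious replicate 3 or more anxious replicate 3. Complement genes had -0.16 (1 higher and 2 lower of 16, -0.24 to -0.10), with C4a, near-identical to C4b and so uncertain, at 5.9, 7.05 and 4.94 CPM against 3.73, 4.88, 3.3 and 3.61 CPM (fold change -0.70 ± 0.19). The single higher call of this list, C1s1, was 0 without less anxious replicate 1 or 3 or more anxious replicate 1, 3 or 4. Interferon response and MHC class I genes had -0.15 (0 higher and 1 lower of 30, -0.26 to -0.041), with B2m, the light chain of MHC class I, at 71, 71.4 and 70.9 CPM against 75.4, 75.4, 65.1 and 95.3 CPM. Their single lower call was 0 without less anxious replicate 3 or more anxious replicate 1, 2 or 3 and 5 without more anxious replicate 4. Unfolded protein response genes had -0.083 (3 higher and 2 lower of 24, -0.12 to -0.0064), proteasome genes 0.064 (0 higher and 1 lower of 31, 0.031 to 0.093), and translation factors -0.033 (1 higher and 0 lower of 34, -0.075 to 0.049). Cholesterol synthesis had 0.046 (0 higher and 0 lower of 23, -0.041 to 0.13) and glycolysis 0.094 (1 higher and 0 lower of 17, -0.0094 to 0.17). In glycolysis Gapdh, glyceraldehyde phosphate dehydrogenase, was at 1160.0, 1125 and 1033 CPM against 1504, 1334, 1645 and 1368 CPM (fold change 0.42 ± 0.12), without overlap. Collagens had -0.050 (0 higher and 2 lower of 23, -0.12 to 0.10) and clustered protocadherins, whose shared constant exons make single members uncertain, -0.080 (0 higher and 2 lower of 57, -0.15 to -0.011). Calls of the unfolded protein response were 0 without less anxious replicate 2 and 1 without less anxious replicate 3 (higher) and 0 without less anxious replicate 2 or more anxious replicate 2 or 4 and 1 without less anxious replicate 1 or 3 (lower). The proteasome call was 0 without less anxious replicate 1 or 2 or more anxious replicate 4, that of translation factors 0 without less anxious replicate 3 or more anxious replicate 3 or 4, 2 without more anxious replicate 1 or 2 and 3 without less anxious replicate 2, and that of glycolysis 2 without less anxious replicate 2 or more anxious replicate 2. Collagen calls were 0 without less anxious replicate 2 or more anxious replicate 2, 1 without less anxious replicate 3 or more anxious replicate 3 and 4 without more anxious replicate 1 (lower) and 2 without less anxious replicate 1 or more anxious replicate 2 (higher), and protocadherin calls 0 without less anxious replicate 2, 4 without less anxious replicate 1 and 5 without more anxious replicate 3. Other counts of 0, by list and direction, became at most 1 with single mice left out.

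Of zinc finger proteins 4.87% were nominally higher and 4.1% lower, near the 5.02 and 3.46% of all genes. With 139 positive and 251 negative, they had a median of -0.072 (19 higher and 16 lower of 390, -0.11 to -0.023), or -0.033 with the GC offset. Their counts were 10 without less anxious replicate 1 or more anxious replicate 3 and 12 with the GC offset (higher) and 10 without more anxious replicate 3 (lower). Where library totals alone set the scale, 13 were higher and 26 lower, and of all genes 1075 and 1137. Histone-modifying enzymes, at 4.76% each way, had -0.039 (2 higher and 2 lower of 42, -0.069 to 0.0059) and circadian clock genes -0.028 (2 higher and 2 lower of 19, -0.072 to 0.050). Tef, an output factor of the clock, was at 210.2, 477 and 311 CPM against 244, 341, 232 and 226 CPM (fold change -0.44 ± 0.12), whereas Dbp, a factor of the same family, was at 30.4, 39.6 and 42.5 CPM against 40.9, 46.6, 58.1 and 49.1 CPM (fold change 0.38 ± 0.15, 0.15 with the GC offset). Nuclear-retained long noncoding RNAs had -0.016 (2 higher and 1 lower of 14, -0.16 to 0.045). Malat1, the nuclear speckle RNA, was at 745, 433 and 821 CPM against 912, 726, 791 and 841 CPM, low in less anxious replicate 2 (fold change 0.42 ± 0.17). The higher calls, Malat1 and Snhg14, were 0 without less anxious replicate 2 or more anxious replicate 1 or 2 and 1 without less anxious replicate 1 or 3. They were also 0 with no covariate and with library totals alone. Glucocorticoid targets had 0.050 (2 higher and 0 lower of 18, 0.026 to 0.18). Fkbp5, a co-chaperone of the receptor and not among the 2 called higher, was at 28, 31.8 and 26.8 CPM against 22.8, 26.9, 26 and 23.1 CPM. The higher calls of this list were 0 without less anxious replicate 3, 1 without more anxious replicate 1, 3 or 4 and 4 without more anxious replicate 2. Histone enzyme calls were 1 without less anxious replicate 1 or 2 or more anxious replicate 1 or 4 (higher) and 0 without more anxious replicate 4 and 1 without less anxious replicate 1 or 3 or more anxious replicate 2 (lower), and clock calls 0 without less anxious replicate 1 or more anxious replicate 3 or 4 and 1 without less anxious replicate 2 or 3 or more anxious replicate 1 (higher) and 1 without less anxious replicate 1 or 2 or more anxious replicate 1 or 4 (lower).

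**Figure D3:**
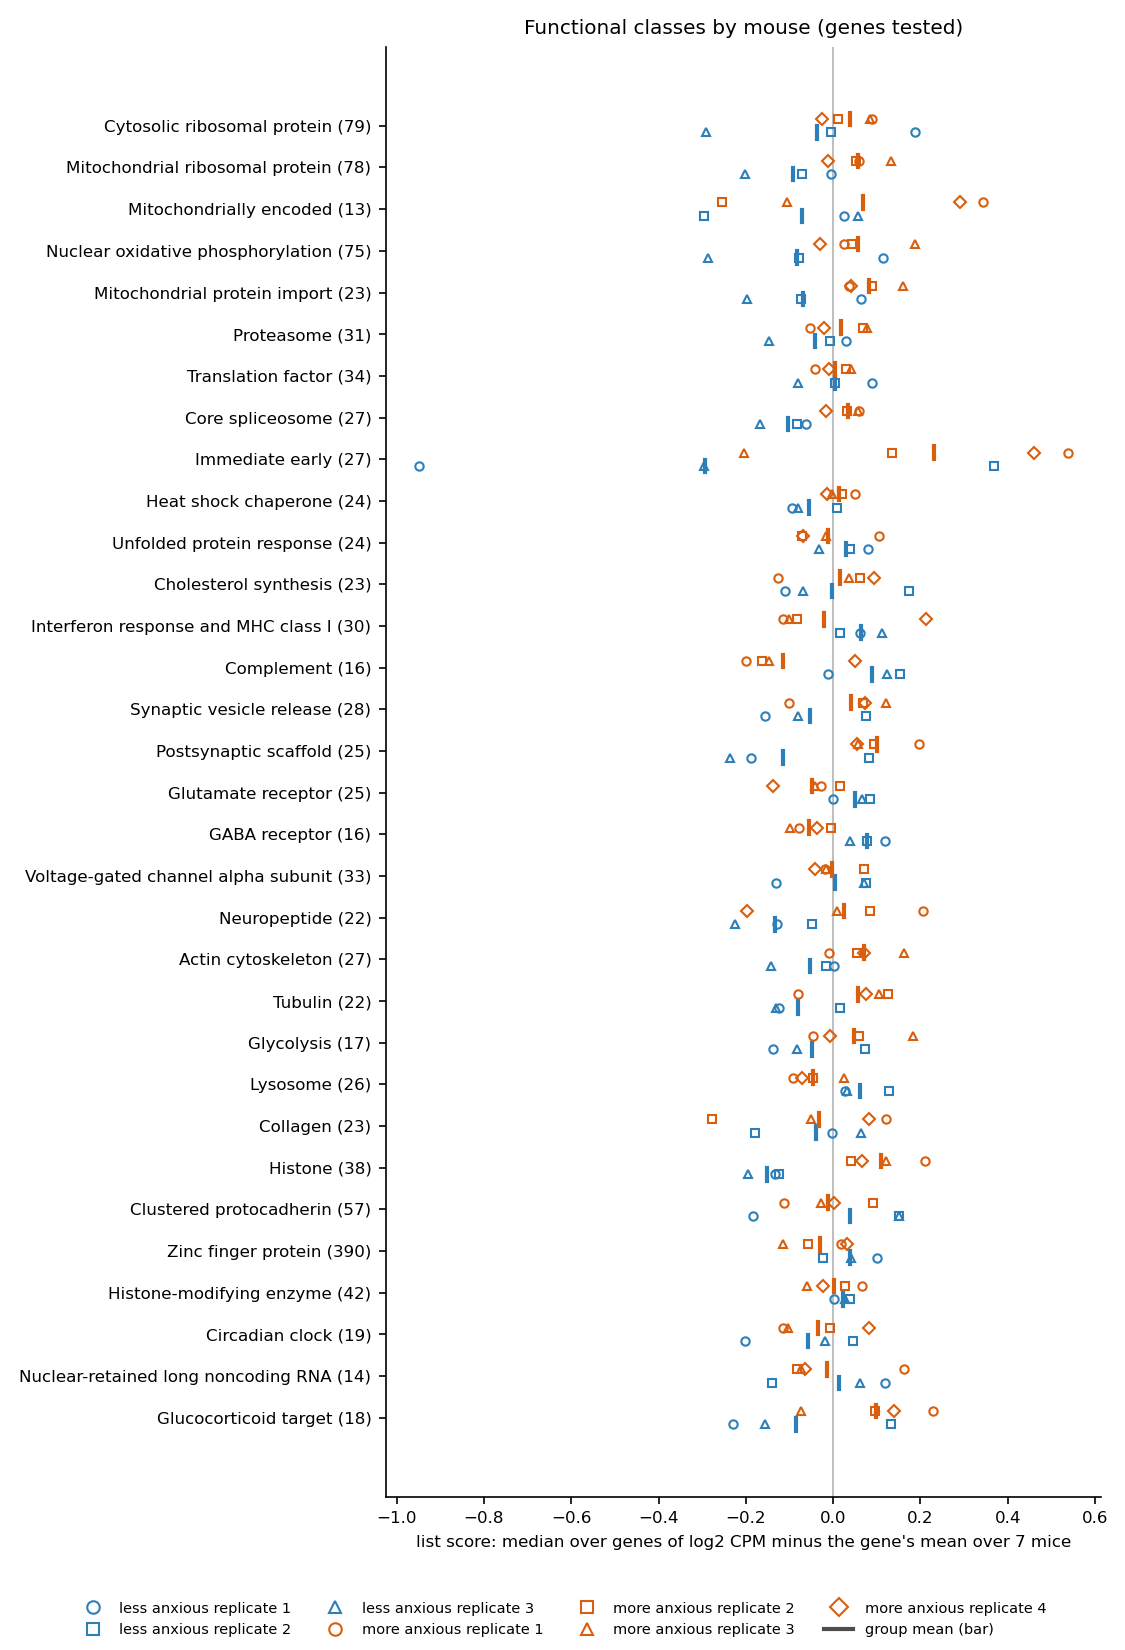
Scores of functional classes by mouse, on the same scale and with the same symbols as the cell-type scores. Core spliceosome and histone scores were higher, and GABA receptor and lysosome scores lower, in all 4 more anxious mice. The lysosome groups nearly met, at 0.025 in more anxious replicate 3 and 0.028 in less anxious replicate 1. Of all single genes, 4.68% lay higher and 3.99% lower without overlap. The immediate early score ran from -0.95 in less anxious replicate 1 to 0.54 in more anxious replicate 1.

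**Figure D4:**
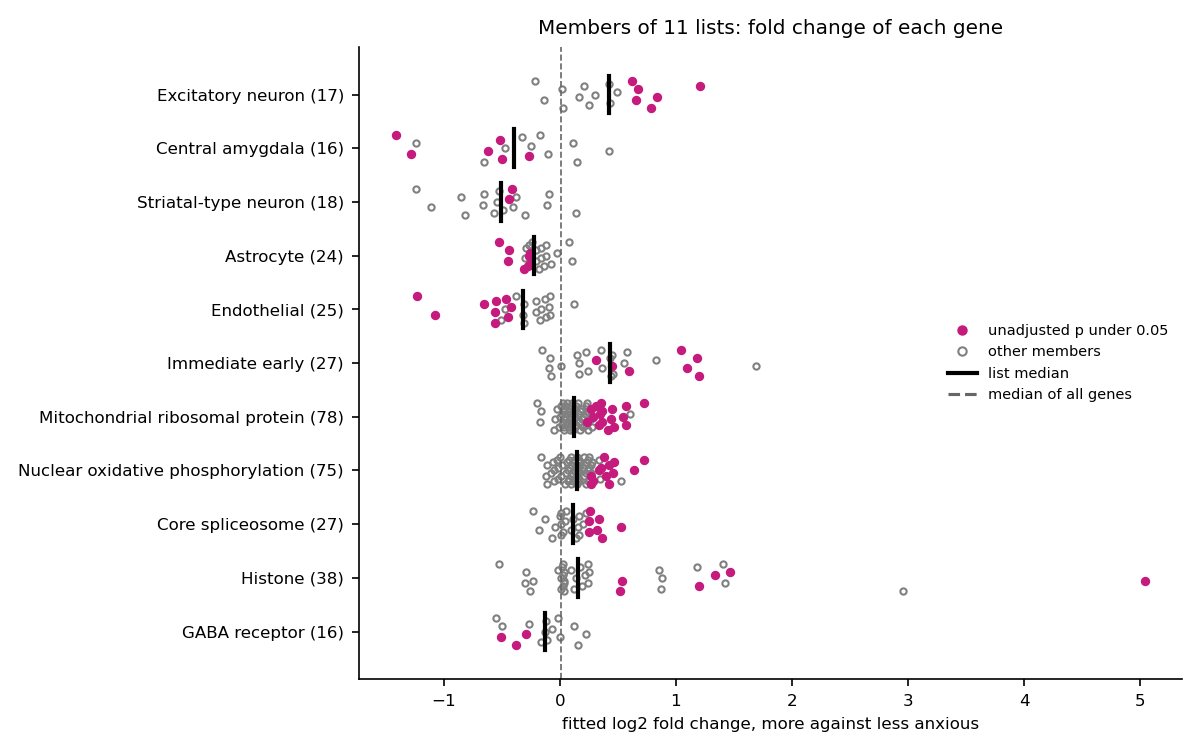
Fitted log2 fold change of every tested member of 11 lists; filled points have an unadjusted p under 0.05, black bars are list medians and the dashed line is the median of all genes. Excitatory and immediate early members lay mostly right of the line (medians 0.42 and 0.43), and striatal-type, central amygdala and endothelial members mostly left (-0.51, -0.40 and -0.32).

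Genes that the study names in neither its text nor its tables were taken by size. 680 such genes with a mean of at least 5 CPM were nominal and without overlap, 383 higher and 297 lower, and those with the largest fold changes are described, 11 higher and 12 lower. Since these were picked from the same contrast, their gaps are a description. Pou2f1 (chr1:165865154-166002678, GRCm38), the octamer-binding factor Oct-1, had the largest fold change upward, 1.83 ± 0.38. It was at 10.9, 13.2 and 22 CPM in the less anxious mice and 59.6, 31.2, 47.6 and 74.3 CPM in the more anxious mice. Less anxious replicates 1 and 2 were lowest and more anxious replicate 4 highest, with more anxious replicate 2 the nearest to the less anxious mice. Prdm8 (chr5:98167198-98188991), a chromatin regulator of projection neurons, was at 17, 20.4 and 21.9 CPM against 33.8, 25.4, 41.2 and 48.7 CPM (fold change 0.94 ± 0.20). Nr2f6, an orphan nuclear receptor, was at 9.62, 13.8 and 10.7 CPM against 22.9, 14.3, 21.9 and 17.5 CPM (fold change 0.75 ± 0.20, 0.28 with the GC offset). These 3 transcriptional regulators had adjusted p-values of 0.241 to 0.338 (edgeR quasi-likelihood, Benjamini-Hochberg). Kcng2, a modifying subunit of potassium channels, was at 3.99, 6.48 and 3.69 CPM against 11, 7.36, 10.1 and 6.61 CPM (fold change 0.87 ± 0.25), with less anxious replicate 2 close to more anxious replicate 4.

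The other 7 higher genes had fold changes from 0.73 to 0.98. Mfsd8, a lysosomal membrane transporter whose loss causes a neuronal ceroid lipofuscinosis, was at 17, 14.7 and 13.7 CPM in the less anxious mice and 22.1, 24, 26.6 and 29.4 CPM in the more anxious mice. Trir, a telomerase RNA-interacting ribonuclease, was at 30.7, 33.2 and 28.6 CPM against 53.8, 46.2, 60.8 and 47.5 CPM. Both had narrow groups, with fold changes of 0.79 ± 0.13 and 0.76 ± 0.13. Ndufaf8, an assembly factor of complex I, was at 7.26, 3.73 and 4.29 CPM against 7.54, 7.33, 12.9 and 8.0 CPM (fold change 0.98 ± 0.20), with more anxious replicate 3 far above its group. Selenoh, a nuclear selenoprotein, was at 7.76, 8.45 and 6.68 CPM against 9.93, 11.4, 21.8 and 9.09 CPM (fold change 0.80 ± 0.31), high again in more anxious replicate 3 alone. Eps8l1, an actin-regulating adaptor, was at 10.6, 9.15 and 9.41 CPM against 18.2, 16.4, 16.2 and 14.1 CPM, and Rex1bd, a gene of little known function, at 19.6, 18.2 and 14.5 CPM against 28.2, 27.9, 33 and 26.2 CPM. Their fold changes were 0.75 ± 0.14 and 0.74 ± 0.14. Crlf2, a subunit of the receptor for thymic stromal lymphopoietin, was at 8.51, 6.88 and 6.94 CPM against 11.9, 10.7, 13.8 and 11.3 CPM (fold change 0.73 ± 0.14, 0.34 with the GC offset).

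Among the 12 lower genes Adgra3 (chr5:49959956-50059006, GRCm38), an adhesion G-protein-coupled receptor, had the largest difference, -1.74 ± 0.45. It was at 26.7, 24.6 and 44.5 CPM in the less anxious mice and 17, 11.4, 5.61 and 7.61 CPM in the more anxious mice, so less anxious replicate 3 was highest and more anxious replicates 3 and 4 lowest. Oprk1 (chr1:5588466-5606131), the kappa opioid receptor to which dynorphin binds, was at 14.9, 14 and 17.8 CPM against 8.16, 10.3, 11 and 7.28 CPM. All 4 more anxious values lay below, with a fold change of -0.76 ± 0.18, in the same direction as Pdyn, the precursor of its ligand (-1.41). Sv2c, a vesicle glycoprotein of basal ganglia neurons, was at 70.9, 85 and 99.1 CPM against 50.3, 70.8, 49.8 and 44 CPM (fold change -0.75 ± 0.14), with more anxious replicate 2 just under less anxious replicate 1. Gprin3, a regulator of neurite outgrowth found in striatal neurons, was at 6.48, 7.13 and 10.7 CPM against 6.15, 5.81, 4.45 and 4.56 CPM (fold change -0.68 ± 0.22). Ddc, the decarboxylase that makes dopamine and serotonin, was at 12.1, 11.5 and 12.5 CPM against 9.68, 9.79, 5.72 and 4.84 CPM (fold change -0.81 ± 0.24). More anxious replicates 3 and 4 were low for this gene and replicates 1 and 2 close to the less anxious mice. Lrig1, which restrains growth factor receptors, was at 82.7, 45.2 and 41.9 CPM against 36.4, 39.5, 30.02 and 31.7 CPM (fold change -0.65 ± 0.25), with less anxious replicate 1 far above the rest. Il13ra1, a subunit of interleukin receptors, was at 15.9, 8.95 and 12 CPM against 7.04, 8.29, 6.26 and 7.86 CPM (fold change -0.66 ± 0.20). Hsd3b7, an enzyme of bile acid synthesis, was at 5.68, 5.73 and 10.6 CPM against 1.72, 4.52, 2.17 and 4.67 CPM, with a fold change of -1.21 ± 0.43. Gpam, the first enzyme of glycerolipid synthesis, was at 18.7, 26.4 and 22.7 CPM against 13.8, 17.1, 16.1 and 14.2 CPM (fold change -0.60 ± 0.13).

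N4bp2, a DNA-binding nuclease-like protein, was at 31.7, 32.5 and 31.3 CPM against 26.1, 27.4, 14.1 and 16.9 CPM (fold change -0.73 ± 0.19), with 2 of 4 more anxious mice well below the rest. Slc9b2, a sodium-proton exchanger, was at 9.67, 7.18 and 6.44 CPM against 6.44, 6.41, 4.59 and 3.14 CPM (fold change -0.64 ± 0.28), with more anxious replicate 1 equal to less anxious replicate 3 to within rounding. The transfer RNA gene mt-Th of the mitochondrial genome was at 17.1, 5.85 and 7.38 CPM against 4.5, 4.13, 4.23 and 4.61 CPM (fold change -0.94 ± 0.26), high in less anxious replicate 1. The libraries were made from mRNA, and whether these reads come from the transfer RNA itself or from longer mitochondrial transcripts was not tested. By edgeR quasi-likelihood with Benjamini-Hochberg adjustment the 12 lower genes had adjusted p-values of 0.192 to 0.58 and the 11 higher genes of 0.126 to 0.551. Of 98 nominal genes, those described with a fold change and the pseudogene Pgam1-ps2, 57 kept an unadjusted p under 0.05 in every alternative run and none changed direction.

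**Figure D5:**
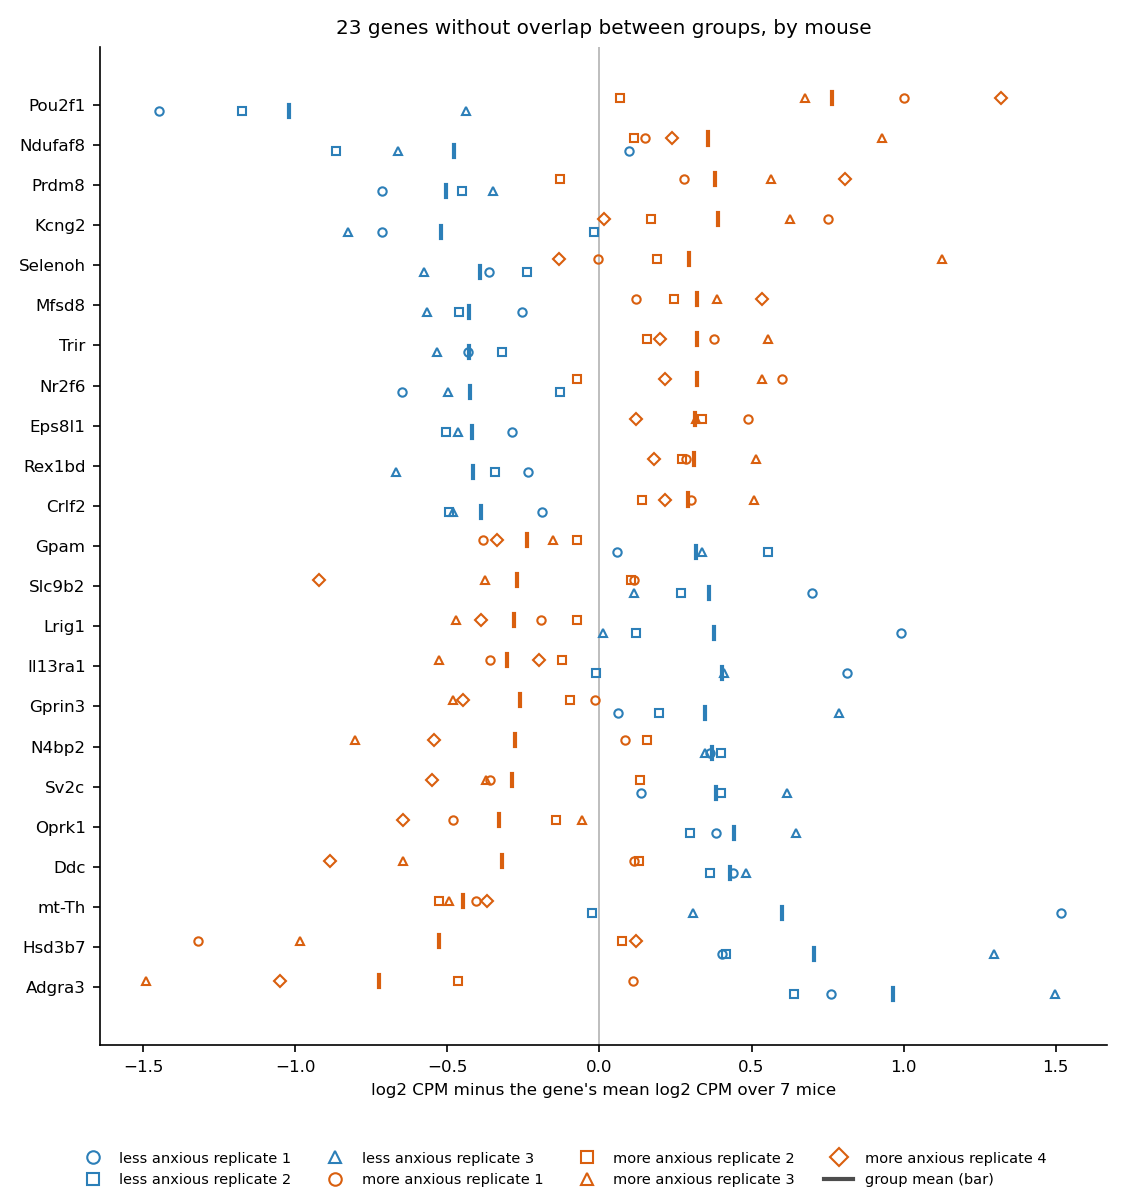
The 23 genes by mouse, as log2 CPM minus the mean log2 CPM of the gene over 7 mice, ordered by fold change; blue symbols are less anxious mice, orange symbols more anxious mice and vertical bars group means. The upper 11 lay higher and the lower 12 lower in all 4 more anxious mice, from Pou2f1 (1.83) to Adgra3 (-1.74).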

How the data were processed

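Amygdala mRNA of 12 mice was sequenced, and the authors deposited estimated counts per gene, made with Salmon per the submitters' processing notes, which also name CASAVA, DESeq2 and the build mm10. These expected counts were all whole numbers, so rounding was not needed. Of 47729 genes 47310 (99.1%) had an entry in GENCODE M21 (GRCm38), the source of names, positions, lengths and GC content. Whether the counting used strand is not given in the sources used here. Groups follow the predicted anxiety state in the labels, and 5 columns were not used for the comparison.

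Genes with at least 10 counts over the 7 libraries were fitted in edgeR 4.0.16 (R 4.3.3; glmQLFit, robust, TMM factors) with the group and the PC1 score, as in the study's design. PC1 came from variance-stabilized counts of the 11 labelled libraries (DESeq2 1.42.0). The script was tested on simulated counts with 200 changed genes. CPM values use TMM-scaled totals. Tables and figures were made in Python 3.11.15. Alternatives were other size factors, library totals alone, 2 other filters, DESeq2's likelihood ratio test, no covariate, all 11 labelled libraries, an offset by GC content, and leaving out each mouse.

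The 50 lists, 18 of cell types and 32 of functional classes, were chosen with earlier results of these data known, and some genes are in more than 1 list. Lists were described by counts and medians, with no set test. Genes named come from the 3 members of a list with the smallest p, its most abundant member, defining markers, any gene past adjusted p 0.05, and, among genes not in the paper with a mean of at least 5 CPM, an unadjusted p under 0.05 and no overlap, the 12 largest and 12 smallest fold changes, leaving out pseudogenes and unnamed models. Some results under these rules are not reported here. Btg2 and Dusp1 were named for their motif, after their values were seen. Promoter windows are from RefSeq (GRCm38.p6).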

Additional observations from a re-analysis of the deposited data

Results flagged for a closer look

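Within the 4 more anxious mice, 13 of 186 results, each the CPM of a gene or the score of a list, had 1 mouse set apart from its group by Dixon's criterion, the gap to the next value against the range. Chance does this in about 1 in 20 groups. The less anxious group of 3 is too small for it. More anxious replicate 1 stood apart for Dcn, at 132 CPM against 13.1, 18.9 and 23.8 CPM. The same mouse was apart in the nuclear-retained long noncoding RNA score, 0.16 against -0.083, -0.074 and -0.065. More anxious replicate 2 stood apart for Grin3a, at 66.6 CPM against 62.1, 62.5 and 62.1 CPM, for Meis2, at 159 CPM against 89.7, 90.7 and 88.5 CPM, and for Tef, at 341 CPM against 244, 232 and 226 CPM. It did so too for Ttr, at 4.43 CPM against 1.3, 1.49 and 1.28 CPM. More anxious replicate 3 stood apart for Atp5b, at 897 CPM against 722, 738 and 720.0 CPM, for Cox8a, at 361 CPM against 270.3, 282 and 267 CPM, and for Ndufaf8, at 12.9 CPM against 7.54, 7.33 and 8.0 CPM. It did so too for Pgam1-ps2, at 38.6 CPM against 0, 0 and 0 CPM. More anxious replicate 4 stood apart for Kcnj13, at 1.19 CPM against 0.134, 0.299 and 0.203 CPM. The same mouse was apart in the endothelial score, 0.058 against -0.23, -0.23 and -0.23 and in the interferon response and MHC class I score, 0.21 against -0.12, -0.082 and -0.10.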

How the results depend on the processing

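The count of genes past an adjusted p of 0.05 (Benjamini-Hochberg, 1 in edgeR's quasi-likelihood test) was 0 with no covariate (unadjusted p under 0.05 for 1176 upward and 842 downward), 25 with no filter on low counts, 253 in DESeq2's likelihood ratio test, 12 with all 11 labelled libraries and 0 to 12 with single mice left out. Unadjusted p under 0.05 then held for 818 to 1322 genes upward and 645 to 885 downward, and groups did not overlap for 1612 to 2811 and 1454 to 2234, counts that fewer mice raise by construction. Of 750 list medians under alternatives 22 moved by more than the spread between mice, and 33 of 50 lists kept their sign throughout. The pituitary median was 0.070 at a mean of at least 1 CPM and the GABA receptor median -0.080 with the GC offset. With single mice left out, medians ran from 0.25 to 0.75 for excitatory neuron genes, -0.15 to 0.013 for GABAergic neuron genes, -0.22 to -0.036 for oligodendrocyte precursor genes, -0.24 to -0.0023 for microglia genes, -0.31 to 0.069 for mural cell genes, -0.36 to 0.079 for pituitary genes, -0.38 to -0.11 for thalamus genes and -0.075 to 0.049 for translation factor genes. They ran from 0.069 to 0.21 for core spliceosome genes, -0.12 to -0.0064 for unfolded protein response genes, 0.040 to 0.26 for postsynaptic scaffold genes, -0.17 to -0.050 for glutamate receptor genes, -0.17 to -0.090 for GABA receptor genes, 0.032 to 0.16 for actin cytoskeleton genes, -0.0094 to 0.17 for glycolysis genes, 0.12 to 0.25 for histone genes and -0.16 to 0.045 for nuclear-retained long noncoding RNA genes. The cause was not tested for any of these. Of 100 counts of nominal calls, by list and direction, 22 moved by over 1.5 times with the GC offset and 16 with 11 libraries. Of 1469 values of nominal named genes, 126 lost the threshold and 0 reversed. Depth limits genes below 1 CPM. No paired analysis was possible because replicate numbers follow accession order only.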

Other observations

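Libraries outside the comparison, scaled with all 12 together, held the extremes of several genes described above. Prl was at 2.16, 32.1, 0.60 and 4.56 CPM in anxious replicates 1 to 4, and Gh at 1.5, 20.04, 0.382 and 1.99 CPM. Anxious replicate 2 thus had 1222 and 762 counts of these pituitary hormones, more than any of the 7 libraries compared, and the mouse without a group had 0 and 8. Kcnj13, near 0 in most more anxious mice, was at 0.173, 0.526, 1.55 and 0.846 CPM in the anxious mice, below each less anxious value, and at 0.122 CPM in the mouse without a group. Pou2f1 was at 10.01, 28.5, 37.6 and 9.67 CPM and Adgra3 at 56.1, 8.02, 15.7 and 63.2 CPM in the anxious mice, so anxious replicates 1 and 4 lay at or beyond the less anxious end of both genes.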
